A study of Mus musculus with 48 samples.

Results

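The medial prefrontal cortex (mPFC) of ovariectomized (OVX) mice was compared with that of sham-operated control mice, neither of which was exposed to stress. The comparison used 12 of the 48 arrays of the series, chosen by their labels: 6 mPFC arrays of OVX mice and 6 mPFC arrays of control mice, each from a separate mouse. All of these animals were female C57BL/6J mice of 17 weeks. The control mice carried a sham operation, the OVX mice had lost both ovaries as adults, and the labels name no hormone treatment in either group. The other mPFC arrays came from 6 sham-operated mice exposed to chronic ultra-mild stress (CUMS mice) and 6 ovariectomized mice exposed to it (OVX+CUMS mice), and were used here only to read differences between slides and the test with and without stress. Blood of the same 12 mice was used for a test between the tissues.

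Ovariectomy removes the main source of estradiol and progesterone. Estradiol acts through the nuclear receptors ESR1 and ESR2, which bind DNA and recruit coactivators and corepressors, and through the membrane receptor GPER1, while the progesterone receptor gene Pgr is a textbook estrogen-induced gene. In rodent prefrontal cortex, estrogens are known for their effects on dendritic spines and on glutamate and GABA transmission, and neurons there can make neurosteroids locally.

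The arrays were 1-colour Agilent mouse arrays, which report a brightness for each 60-base probe, and the values below are log2 signals minus the 75th percentile of the array, so that a value of 0 is the 75th percentile of that array. Values of different probes cannot be set against each other. A total of 29327 probes were well above background on all 12 arrays and were tested, standing for 15975 named genes and for noncoding regions and unnamed transcripts. The number of probes well above background was 31551 to 38053 per control array and 32207 to 36680 per OVX array, and the 75th percentile before the shift was 611 to 689 in control mice and 599 to 633 in OVX mice. The 12 arrays shared no slide between the groups. Slide 1 held the 6 control mice and 2 CUMS mice, slide 2 held 4 CUMS mice and 4 OVX mice, and slide 3 held 2 OVX mice and the 6 OVX+CUMS mice. Ovariectomy and slide therefore cannot be told apart in the 12 arrays alone. For each named gene 2 further values are given, often at the end of its paragraph: the difference between the CUMS mice on slide 2 and those on slide 1, who share their treatment (the CUMS slide difference), and the OVX difference from a fit of all 24 mPFC arrays with slide as a term (the slide-term difference). In that fit the CUMS mice on both slides link the control mice to the OVX mice.

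Neuronal, glial and vascular genes were present as the label of the tissue implies: all 27 glutamate genes, all 18 GABA genes, all 14 myelin genes and all 10 astrocyte genes on the lists used here passed the filter. Among markers of tissue next to the mPFC, all 9 striatal markers passed, including Drd1 and Rgs9, whereas 4 of 7 choroid plexus markers did and the defining one, Ttr, did not. Of 10 erythroid markers 7 were tested, and of 8 neutrophil markers 4 were, S100a8, Ltf, Mpo and Ngp being not well above background on all 12 arrays. In RNA of a whole tissue piece, fewer cells of a type and less RNA per cell cannot be told apart.

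Of the 29327 probes, 6718 rose and 4201 fell in OVX mice at an adjusted p below 0.05 by limma, 37.2% of those tested (22.9% higher and 14.3% lower). A probe that passed this threshold is said below to have risen or fallen. By the brightest probe of each named gene, 25.9% of genes rose and 10.5% fell, and these shares are the background for the counts of gene lists below. The changes were small: 80.7% of the called differences were under 0.5 on the log2 scale, and their median size was 0.27. Larger ones lay on 1 side, with 309 probes falling by more than 1 and 3 rising by more than 1. The 6 OVX values and the 6 control values did not overlap in 6006 probes, 20.5% of those tested. The split of higher and lower calls depended on the scaling. Shifting by the 75th percentile of the tested probes alone gave 4486 higher and 4742 lower. Aligning arrays on their E1A spike-in controls instead, whose median spanned 9.84 to 10.9 (log2) over control arrays and 9.86 to 11.1 over OVX arrays, moved the median difference of all probes from 0.06 to -0.44 and gave 0 higher and 2038 lower, with 5546 probes at an unadjusted p below 0.05. Each difference below is thus relative to the bulk of the probes on an array.

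With slide as a term, no probe passed the threshold by limma, the smallest adjusted p being 0.0941. At an unadjusted p below 0.05 there were 1487 probes, 5.08% of the 29279 probes with a value on all 24 arrays, and a fit without moderation of the spread gave 0 calls and 1569. Leaving out 1 array gave 45 probes without CUMS mouse 2, 20 without CUMS mouse 1 and 0 to 2 without any other. Between the CUMS mice of slide 2 and those of slide 1, 1655 probes were higher (5.65%) and 2834 lower (9.68%), in all 15.3% of those tested. This count of 4489 fell to 2542, 2441, 2534 and 2036 without CUMS mice 1, 4, 5 and 6 and to 2877 without moderation. Only CUMS mice 1 and 2 lie on slide 1, and without either one the spread came from the 4 mice of slide 2 alone. This comparison uses no array of an OVX or control mouse. Of the 10905 probes called for OVX with a value there, 95.3% had the same sign between the CUMS slides, and of those called in both, 3482 had the same sign and 1 the other. Over all 29279 probes the 2 differences had a Pearson's r of 0.775, as a description across probes of mice that share slides 1 and 2. Between the OVX mice of slide 3 and those of slide 2, 144 probes differed (0.491%), a count that was 6, 38, 12, 6 and 16 without OVX mice 2 to 6 and 0 without moderation, with 3337 at an unadjusted p below 0.05. Within slide 2, where 4 OVX mice can be set against 4 CUMS mice, 5 probes differed (0.0171%), and within slide 1, 0 probes differed between 2 CUMS mice and 6 control mice by limma, with 1472 at an unadjusted p below 0.05. How much of the OVX difference is a slide difference was not tested beyond these values.

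**Figure D1:**
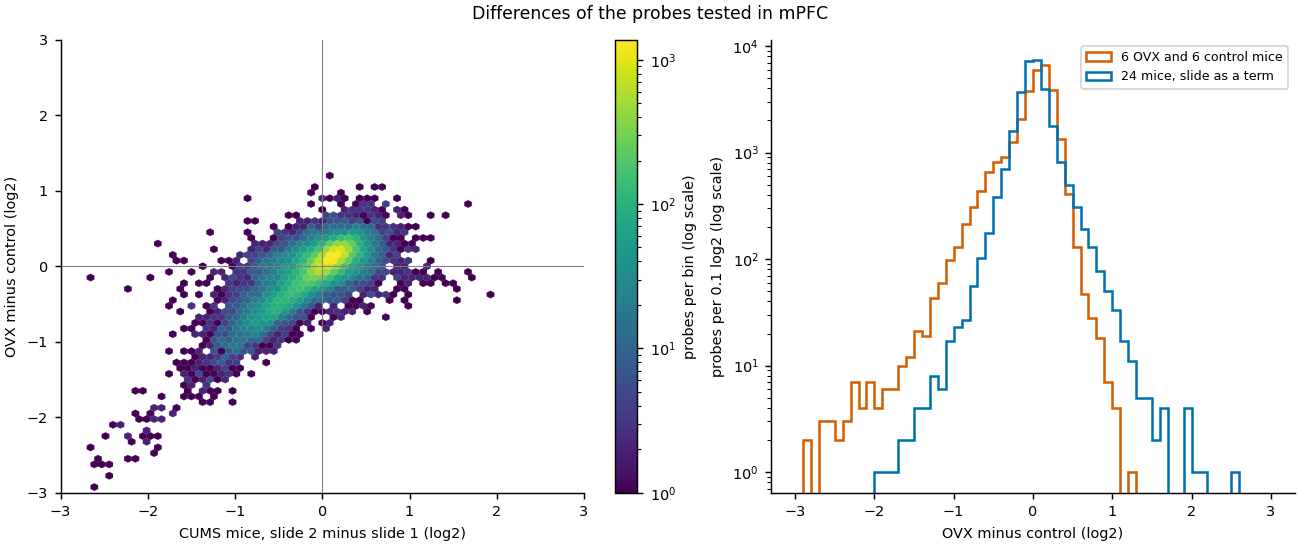
The left panel bins 29279 probes by the difference of CUMS mice between slides 2 and 1 (x axis, log2) and by the difference of OVX and control mice (y axis, log2), with colour for probes per bin; most probes lie along the diagonal and the tail at the lower left holds probes that fell by more than 1 in both. The right panel counts probes by their OVX difference, from the 12 mice alone and from 24 mice with slide as a term, and the left tail is longer in the first and the right tail in the second.

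The receptors of ovarian hormones did not pass the test by limma. Esr1, the nuclear receptor ERα, ranged from -3.78 to -1.88 (median -2.27) in the control mice and from -2.21 to -1.91 (median -2.08) in the OVX mice. The OVX values lay inside the range of the control values, in which control mice 1 and 5 were the lowest, and the difference was 0.48 ± 0.27 (SE), adjusted p = 0.186. Esr2, the receptor ERβ, ranged from 0.95 to 1.99 (median 1.64) in the control mice and from 1.23 to 1.56 (median 1.35) in the OVX mice, and the OVX values again lay inside the control range (-0.18 ± 0.15 (SE), adjusted p = 0.387). Gper1, the membrane receptor, ranged from -1.64 to -1.42 (median -1.46) in the control mice and from -1.47 to -1.19 (median -1.36) in the OVX mice. Its groups overlapped, with a difference of 0.13 ± 0.06 (SE), adjusted p = 0.094. The brighter of 2 probes for Pgr ranged from 0.12 to 0.42 (median 0.24) in the control mice and from 0.08 to 0.32 (median 0.22) in the OVX mice, a difference of -0.03 ± 0.06 (SE), adjusted p = 0.777. By the exact two-sided permutation test of 6 against 6 mice, p was 0.136 for Esr1, 0.312 for Esr2, 0.0498 for Gper1 and 0.682 for Pgr. The differences in the fit with slide were -0.11 ± 0.55 (SE) for Esr1, 0.26 ± 0.34 for Esr2, -0.12 ± 0.11 for Gper1 and -0.03 ± 0.12 for Pgr, so the values of Esr1, Esr2 and Gper1 changed sign. Esr1 had a CUMS slide difference of 0.62, Esr2 of -0.41, Gper1 of 0.30, and Pgr of -0.03. Without a call, further probes differed by -0.01 for Pgr.

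Some cofactors through which such receptors act passed it. Of 18 receptors and coregulators 6 rose and 2 fell, 33.3% and 11.1%, near the background of 25.9% and 10.5%. Their median difference was 0.13 against 0.08 over all genes. With slide as a term their median was 0.02, with 0 of 18 genes at an unadjusted p below 0.05. Ncor1, the corepressor that recruits histone deacetylases to unliganded nuclear receptors, ranged from 1.77 to 1.97 (median 1.85) in the control mice and from 2.19 to 2.44 (median 2.39) in the OVX mice. Every OVX mouse was above every control mouse (0.50 ± 0.05 (SE), adjusted p = 1.35e-05). The CUMS mice gave 1.92 and 1.97 on slide 1 and 2.37 to 2.46 on slide 2, a difference of 0.45, and the OVX difference with slide as a term was 0.09 ± 0.08. The other 3 probes for Ncor1 differed by 0.01, 0.04 and 0.32 and did not pass. Crebbp, a histone acetyltransferase, rose by 0.23 ± 0.06 (SE), adjusted p = 0.00882, and Ncoa3, a p160 coactivator, by 0.20 ± 0.05 (SE), adjusted p = 0.00968. Both groups were apart in each gene, and with slide as a term the values were -0.03 ± 0.13 and 0.05 ± 0.11. Med1, the Mediator subunit that contacts nuclear receptors, fell by 0.22 ± 0.04 (SE), adjusted p = 0.00116 on its brightest probe, while a dimmer probe for the same gene rose by 0.16 ± 0.06, adjusted p = 0.0342, and 2 others did not pass. Esrra, an orphan receptor tied to mitochondrial genes, fell by 0.22 ± 0.08 (SE), adjusted p = 0.0358. The CUMS slide differences of Med1 and Esrra were -0.23 and -0.18. Crebbp had a CUMS slide difference of 0.22, and Ncoa3 of 0.13. Med1 had a slide-term difference of 0.05 ± 0.07, and Esrra of -0.05 ± 0.16. On further probes that passed, the difference was 0.17 for Crebbp and 0.38 for Ncoa3. Other probes that did not pass differed by 0.05 and 0.03 for Med1. The call for Esrra was lost without any 1 of control mouse 5 and OVX mice 1, 2, 3, 4 and 6 (adjusted p up to 0.0737).

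**Figure D2:**
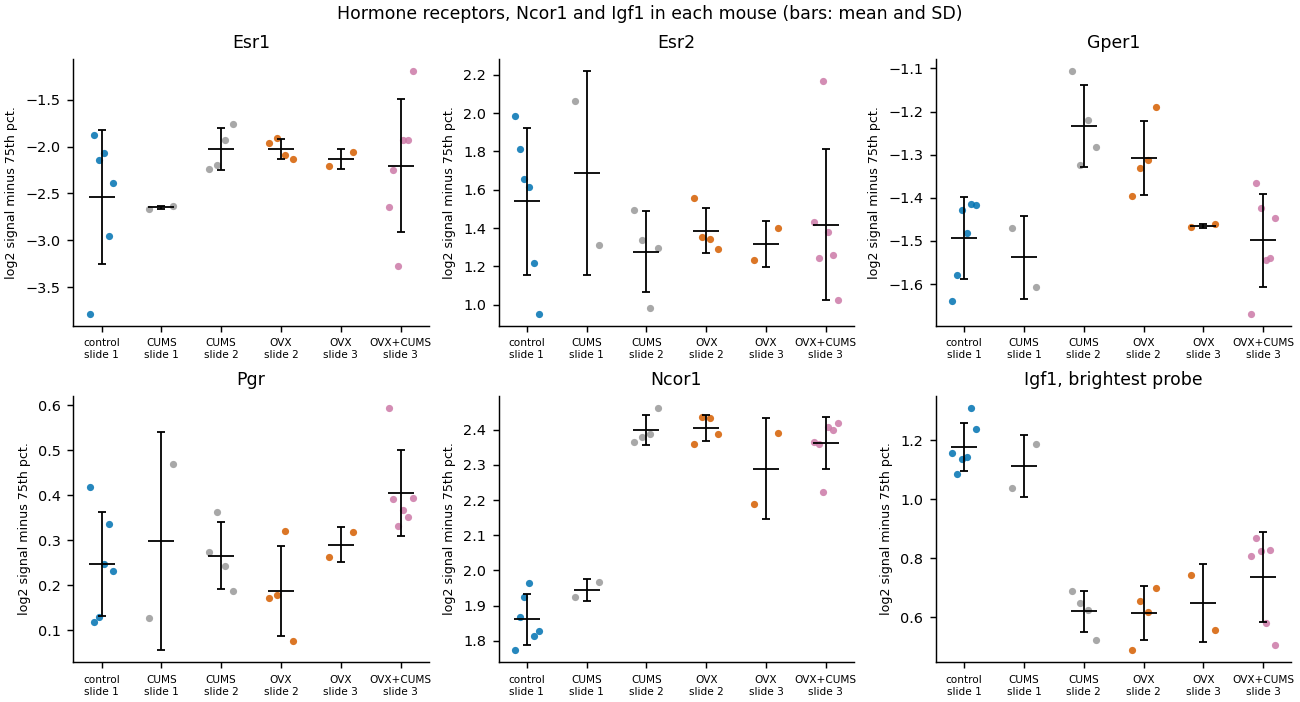
Each panel gives 1 probe and each point 1 mouse, as log2 signal minus the 75th percentile of the array (y axis), with mice grouped by treatment and slide (x axis) and bars for the mean and SD. Ncor1 and Igf1 of CUMS mice lie with the control mice on slide 1 and with the OVX mice on slide 2, and Esr1, Esr2, Gper1 and Pgr overlap between control and OVX mice.

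Among 17 tested estrogen-induced genes 6 rose (35.3%) and 2 fell (11.8%), against 25.9% and 10.5% of all genes. With slide as a term their median went from 0.17 to 0.04. Igf1, the growth factor that estrogens induce in uterus and brain, ranged from 1.09 to 1.31 (median 1.15) in the control mice and from 0.49 to 0.74 (median 0.64) in the OVX mice on its brightest probe. The groups were apart (-0.55 ± 0.05 (SE), adjusted p = 8.94e-06). The CUMS mice gave 1.04 and 1.19 on slide 1 and 0.52 to 0.69 on slide 2, and the slide-term difference was -0.07 ± 0.12. The other 4 probes for Igf1 had differences of -0.05, -0.04, -0.03 and 0.03, none of which passed, so that 1 of 5 probes carried the call. In the genome build mm9 used by the array, this probe lies at chr10:87378456-87378515. Greb1, a coactivator induced by estrogen in breast cells, fell by 0.43 ± 0.10 (SE), adjusted p = 0.00432. Prlr, the prolactin receptor, rose by 0.33 ± 0.07 (SE), adjusted p = 0.00246 and had a difference of 0.27 ± 0.14 with slide as a term and of 0.02 between the CUMS slides. Celsr2, a cadherin of planar polarity, rose by 0.33 ± 0.08 (SE), adjusted p = 0.00536, and it had the smallest p of the list with slide as a term (0.30 ± 0.12, unadjusted p = 0.0226, adjusted p = 0.943). Ctsd, the lysosomal protease cathepsin D, rose by 0.21 ± 0.04 (SE), adjusted p = 0.00147. Ctsd differed by 0.12 between the CUMS slides and by 0.11 ± 0.07 with slide as a term, and Greb1 by -0.24 and -0.13 ± 0.19. Celsr2 had a CUMS slide difference of 0.09, and Igf1 of -0.49. Other probes that passed differed by 0.20 for Ctsd. Further probes without a call gave 0.31 for Celsr2 and -0.23 for Greb1.

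Of 16 tested genes of steroid synthesis and conversion, 5 rose (31.25%) and 2 fell (12.5%), against 25.9% and 10.5% of all genes. Cyp19a1, which encodes aromatase, Hsd17b1 and Sult1e1 were not well above background on all 12 arrays and were not tested. Fdxr, which passes electrons to mitochondrial cytochromes P450, ranged from 0.78 to 0.94 (median 0.88) in the control mice and from 1.02 to 1.20 (median 1.13) in the OVX mice and rose by 0.26 ± 0.04 (SE), adjusted p = 0.000754. Its slide-term difference of 0.18 ± 0.08 kept the direction (unadjusted p = 0.0409, adjusted p = 0.973). Tspo, the outer mitochondrial membrane protein used as a glial marker, rose by 0.36 ± 0.08 (SE), adjusted p = 0.00293, and Hsd17b10 rose by 0.17 ± 0.04 (SE), adjusted p = 0.00691. Sts, the steroid sulfatase that frees dehydroepiandrosterone from its sulfate, ranged from 2.81 to 3.1 (median 3.00) in the control mice and from 2.50 to 2.77 (median 2.60) in the OVX mice and fell by 0.38 ± 0.06 (SE), adjusted p = 0.000385. In CUMS mice it gave 2.95 and 3.04 on slide 1 and 2.32 to 2.52 on slide 2, and with slide as a term the OVX difference was 0.21 ± 0.21, in the other direction. Por, the reductase that serves microsomal P450 enzymes, fell by 0.26 ± 0.04 (SE), adjusted p = 0.000409. Tspo differed by 0.46 between the CUMS slides and by -0.07 ± 0.15 with slide as a term, Hsd17b10 by 0.21 and -0.04 ± 0.08, and Por by -0.21 and -0.04 ± 0.07. Fdxr had a CUMS slide difference of 0.10, and Sts of -0.57.

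Of 8 tested neurotrophins and receptors 2 rose (25%) and 2 fell (25%), against 25.9% and 10.5% of all genes. Sort1, a receptor that sorts neurotrophin precursors, fell by 0.19 ± 0.05 (SE), adjusted p = 0.00767. Ntrk3, the receptor of NT-3, rose by 0.28 ± 0.07 (SE), adjusted p = 0.00893, with a CUMS slide difference of 0.05 and a slide-term difference of 0.27 ± 0.12 (unadjusted p = 0.0377, adjusted p = 0.973). Gfra1, the coreceptor of GDNF, rose by 0.24 ± 0.07 (SE), adjusted p = 0.0135, and its slide-term difference was 0.00 ± 0.15. Sort1 differed by -0.16 between the CUMS slides and by -0.03 ± 0.09 with slide as a term. Gfra1 had a CUMS slide difference of 0.26. Further probes that also passed gave 0.31 for Ntrk3 and -0.68 for Sort1. Without a call, further probes differed by -0.23 and -0.06 for Ntrk3 and 0.14 for Sort1.

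Some synaptic genes rose, by small amounts. Of 19 genes of synaptic vesicles and release 6 rose and 0 fell, and their median difference was 0.11 in the 12 mice, 0.09 with slide as a term and 0.02 between the CUMS slides. The sum of the list, as the mean of its centred values, spanned -0.11 to -0.02 in control mice and 0.02 to 0.10 in OVX mice. Such means were apart in other lists too. They spanned -0.10 to -0.01 and 0.02 to 0.06 for monoamine receptors and enzymes, of which 1 of 23 rose. For proteasome subunits they spanned -0.13 to -0.02 and 0.04 to 0.09. Bsn, a scaffold of the presynaptic active zone, ranged from 4.64 to 4.82 (median 4.74) in the control mice and from 4.76 to 5.09 (median 5.03) in the OVX mice. It rose by 0.27 ± 0.06 (SE), adjusted p = 0.00358, with 1 OVX mouse inside the control range. Stx1a, a SNARE of vesicle fusion, ranged from 3.90 to 4.2 (median 4.05) in the control mice and from 4.18 to 4.46 (median 4.31) in the OVX mice and rose by 0.27 ± 0.06 (SE), adjusted p = 0.00542. Unc13a, which primes vesicles, ranged from -0.94 to -0.80 (median -0.89) in the control mice and from -0.80 to -0.56 (median -0.70) in the OVX mice and rose by 0.20 ± 0.05 (SE), adjusted p = 0.00557. The CUMS slides differed by 0.06, 0.04 and -0.01, and the slide-term differences were 0.27 ± 0.10, 0.27 ± 0.10 and 0.20 ± 0.12. In that fit 4 of the 19 genes had an unadjusted p below 0.05, against 4.73% of all genes. These were Bsn (0.0133), Stx1a (0.0123) and, named after their values were seen, Syp (0.00658) and Vamp2 (0.00139), which encode synaptophysin and synaptobrevin. Their adjusted p-values were 0.925, 0.916, 0.892 and 0.721. The 4 slide-term differences share the same CUMS mice of slide 1 and are not independent. CUMS mice 1 and 2 gave 4.9 and 4.96 for Bsn and 4.18 and 4.31 for Stx1a. They gave 6.5 and 6.65 for Syp and 6.23 and 6.46 for Vamp2. The highest control values were 4.82, 4.2, 6.53 and 6.28. On slide 2, OVX and CUMS values overlapped for Bsn and were apart for Stx1a, Syp and Vamp2. Syp rose by 0.15 ± 0.04 (SE), adjusted p = 0.00771 and Vamp2 by 0.15 ± 0.05 (SE), adjusted p = 0.0401 in the 12 mice. Syp differed by -0.07 between the CUMS slides and by 0.24 ± 0.08 with slide as a term, and Vamp2 by -0.11 and 0.31 ± 0.08. Other probes that did not pass differed by 0.13 for Unc13a. Leaving out any 1 of control mice 1, 2, 3 and 5 and OVX mice 1, 2, 3 and 4 ended the call for Vamp2 (adjusted p up to 0.0845).

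Of 27 glutamate receptor and transporter genes 7 rose and 1 fell. Grin1, the obligatory NMDA receptor subunit, ranged from 2.62 to 2.79 (median 2.75) in the control mice and from 2.88 to 3.11 (median 2.98) in the OVX mice. No values overlapped (0.26 ± 0.05 (SE), adjusted p = 0.00165). The CUMS mice gave 2.89 and 3.02 on slide 1 and 2.88 to 2.97 on slide 2, above the control mice on both slides, and the slide-term difference was 0.32 ± 0.09 (unadjusted p = 0.00124, adjusted p = 0.721). Slc17a7, the vesicular glutamate transporter of cortical pyramidal cells, rose by 0.24 ± 0.05 (SE), adjusted p = 0.0049 and Slc1a1, a neuronal glutamate uptake carrier, by 0.20 ± 0.04 (SE), adjusted p = 0.00227. Grm2, a presynaptic inhibitory receptor, fell by 0.21 ± 0.08 (SE), adjusted p = 0.0465. Of 18 GABA genes 4 rose and 1 fell. The receptor subunits Gabrb1 and Gabrb2 rose by 0.34 ± 0.07 and 0.19 ± 0.04, the vesicular transporter Slc32a1 rose by 0.11 ± 0.04, and the extrasynaptic subunit Gabra4 fell by 0.25 ± 0.06 (SE), adjusted p = 0.00448. The slide-term values were 0.22 ± 0.12, -0.04 ± 0.10, 0.15 ± 0.08 and -0.17 ± 0.12. Of 23 postsynaptic genes 4 rose and 1 fell. Dlg2, the scaffold PSD-93, rose by 0.23 ± 0.05 (SE), adjusted p = 0.00297. Dbn1, the spine protein drebrin, rose by 0.19 ± 0.05 (SE), adjusted p = 0.00912 and Cfl1, which severs actin, by 0.12 ± 0.04 (SE), adjusted p = 0.0198. Homer3 fell by 0.22 ± 0.07 (SE), adjusted p = 0.0246 and had a slide-term difference of 0.17 ± 0.11. The share that rose was 31.6% of the vesicle genes, 25.9% of the glutamate genes, 22.2% of the GABA genes and 17.4% of the postsynaptic genes, near or below the background of 25.9%. Slc1a1 differed by 0.09 between the CUMS slides and by 0.14 ± 0.09 with slide as a term, Slc17a7 by 0.07 and 0.20 ± 0.10, Grm2 by -0.17 and -0.07 ± 0.16, Dlg2 by 0.17 and 0.09 ± 0.09, and Dbn1 by 0.00 and 0.23 ± 0.12. Cfl1 differed by 0.08 between the CUMS slides and by 0.03 ± 0.07 with slide as a term. Grin1 had a CUMS slide difference of -0.03, Gabrb1 of 0.15, Gabrb2 of 0.23, Slc32a1 of -0.05, Gabra4 of -0.10, and Homer3 of -0.32. On further probes that passed, the difference was 0.18 for Dlg2 and 0.23 for Cfl1. Further probes without a call gave 0.06 for Grin1, 0.18 for Slc32a1 and 0.12 for Cfl1. Grm2 lost its call without any 1 of control mice 1, 5 and 6 and OVX mice 1, 2, 3, 4 and 5 (adjusted p up to 0.0967). The call for Slc32a1 was lost without any 1 of control mice 2, 3, 5 and 6 and OVX mice 3, 4, 5 and 6 (adjusted p up to 0.0747). Leaving out any 1 of control mice 1 and 4 ended the call for Homer3 (adjusted p up to 0.0522).

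**Figure D3:**
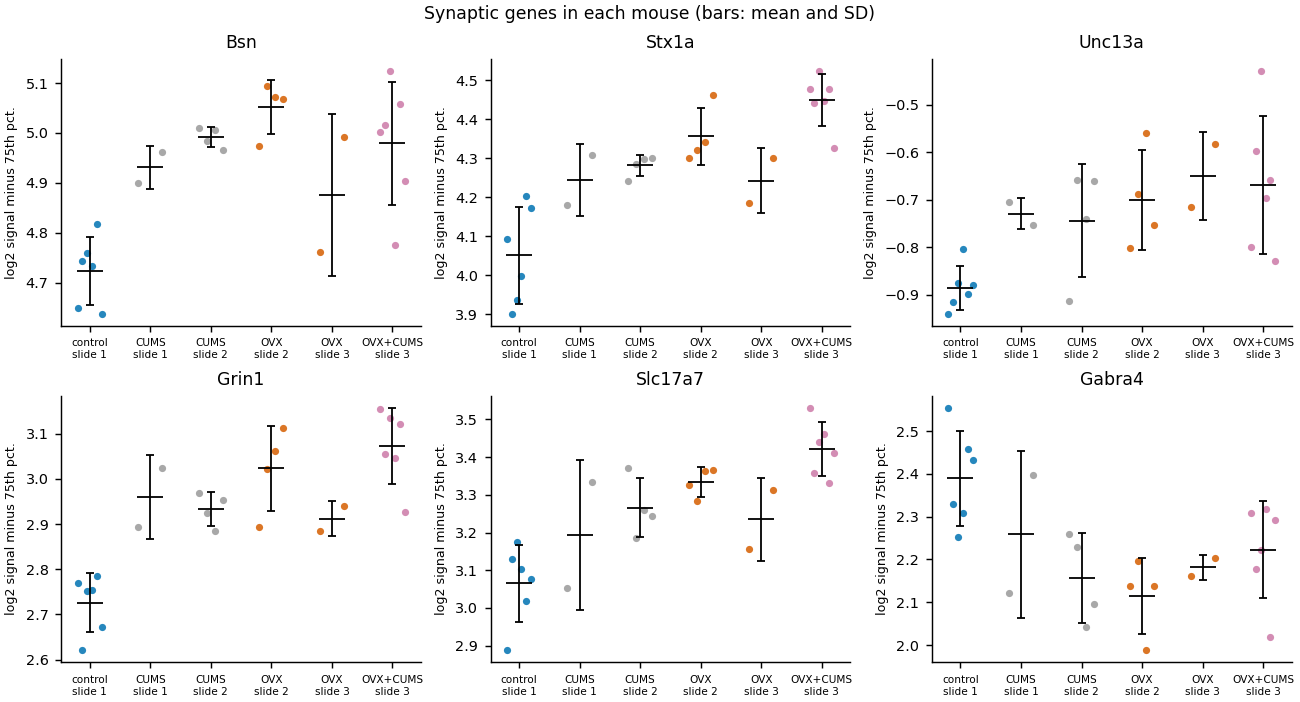
Points are mice and bars the mean and SD of log2 signal minus the 75th percentile of the array (y axis), by treatment and slide (x axis), for 5 genes that rose and Gabra4, which fell. Values of Grin1 in both CUMS mice of slide 1 lie above those of the 6 control mice on the same slide.

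Few transmitter receptors and activity-dependent genes passed. Of 20 immediate early genes 1 rose, Jund (0.17 ± 0.06 (SE), adjusted p = 0.0332), and 0 fell. The mean of the list spanned -0.29 to 0.40 in control mice and -0.14 to 0.12 in OVX mice. Of 23 monoamine receptors and enzymes 1 rose, the dopamine receptor gene Drd1 (0.42 ± 0.15 (SE), adjusted p = 0.0433). Of 20 neuropeptides and receptors 3 rose and 1 fell. The somatostatin receptor gene Sstr2 rose by 0.23 ± 0.07 (SE), adjusted p = 0.0182, the PACAP receptor gene Adcyap1r1 by 0.16 ± 0.05 and the cholecystokinin receptor gene Cckbr by 0.17 ± 0.06. Oprm1, the µ-opioid receptor, fell by 0.16 ± 0.05 (SE), adjusted p = 0.0319. Of 13 interneuron markers 0 rose and 1 fell, Lhx6, the transcription factor of interneurons from the medial ganglionic eminence (-0.29 ± 0.07 (SE), adjusted p = 0.00652). Jund differed by 0.00 between the CUMS slides and by 0.13 ± 0.09 with slide as a term, Lhx6 by -0.31 and -0.04 ± 0.19, Drd1 by 0.22 and 0.23 ± 0.24, Sstr2 by 0.23 and 0.05 ± 0.12, and Adcyap1r1 by 0.24 and -0.04 ± 0.07. Cckbr differed by 0.21 between the CUMS slides and by -0.04 ± 0.10 with slide as a term, and Oprm1 by -0.33 and 0.11 ± 0.14. Without a call, further probes differed by 0.00 for Lhx6 and 0.13 for Cckbr. Jund lost its call without any 1 of control mice 1, 2, 3 and 4 and OVX mice 1, 2, 5 and 6 (adjusted p up to 0.0707). The call for Drd1 was lost without any 1 of control mice 1, 2, 5 and 6 and OVX mice 1, 2, 3, 4 and 5 (adjusted p up to 0.0897). Leaving out any 1 of control mice 2, 3, 4 and 6 and OVX mice 1, 2, 4, 5 and 6 ended the call for Cckbr (adjusted p up to 0.0949). Oprm1 lost its call without any 1 of control mice 1, 3, 4 and 5 and OVX mice 1, 2, 3 and 4 (adjusted p up to 0.0688).

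Markers of cortical layers and of neighbouring tissue varied from mouse to mouse. Of 10 deep-layer markers 2 rose: Crym by 0.37 ± 0.11 (SE), adjusted p = 0.02 and Bcl11b by 0.42 ± 0.14 (SE), adjusted p = 0.0279. Of 9 striatal markers 2 rose: Rgs9, a regulator of striatal dopamine signaling, by 0.42 ± 0.14 (SE), adjusted p = 0.0353 and Drd1, given above. The medians of these lists were 0.28 and 0.25 in the 12 mice and 0.23 and 0.23 with slide as a term. The share that rose was 20% of the deep-layer markers and 22.2% of the striatal markers, below the background of 25.9%. The mean of the striatal list spanned -0.20 to 0.01 in control mice and -0.01 to 0.19 in OVX mice, and these ranges overlapped. Whether the level of striatal markers had a part in the deep-layer and dopamine receptor values was not tested. Of 8 upper-layer markers 1 rose, Rorb (0.27 ± 0.07 (SE), adjusted p = 0.0134), with a slide-term difference of -0.23 ± 0.18. Crym differed by 0.27 between the CUMS slides and by 0.16 ± 0.24 with slide as a term, Bcl11b by 0.33 and 0.20 ± 0.23, and Rgs9 by -0.02 and 0.47 ± 0.26. Rorb had a CUMS slide difference of 0.51. Other probes that passed differed by 0.44 and 0.47 for Rgs9. Other probes that did not pass differed by 0.17 for Rorb, 0.32 for Bcl11b and 0.02 for Rgs9. The call for Bcl11b was lost without any 1 of control mice 1 and 5 and OVX mice 1, 3 and 4 (adjusted p up to 0.0605). Leaving out any 1 of control mice 1 and 5 and OVX mice 1, 2, 3 and 5 ended the call for Rgs9 (adjusted p up to 0.0751).

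Myelin genes varied widely among mice. The mean of the 14 myelin genes spanned -0.29 to 0.64 in control mice and -0.37 to 0.71 in OVX mice, and 1 gene passed the test: Ermn, the myelin sheath protein ermin, ranged from 3.27 to 4.89 (median 4.28) in the control mice and from 3.12 to 3.38 (median 3.18) in the OVX mice on its brighter probe, a difference of -0.90 ± 0.23 (SE), adjusted p = 0.00871. The other probe for Ermn differed by -0.15 (adjusted p = 0.472). Ermn had the lowest difference of the list, whose median was above 0. That median was 0.24 in the 12 mice, -0.35 between the CUMS slides and 0.46 with slide as a term. Of 5 markers of oligodendrocyte precursors 2 rose, Sox10 by 0.40 ± 0.10 (SE), adjusted p = 0.00988 and Cspg4, the proteoglycan NG2, by 0.29 ± 0.10 (SE), adjusted p = 0.0459. Of 10 astrocyte markers 1 rose, the receptor gene Fgfr3 (0.19 ± 0.06 (SE), adjusted p = 0.0316). The median of the astrocyte list was -0.01 in the 12 mice and -0.18 with slide as a term. Ermn differed by -0.97 between the CUMS slides and by 0.04 ± 0.48 with slide as a term, Sox10 by 0.02 and 0.36 ± 0.18, Cspg4 by 0.10 and 0.20 ± 0.18, and Fgfr3 by 0.12 and 0.08 ± 0.11. Further probes that also passed gave 0.20 for Fgfr3. Cspg4 lost its call without any 1 of control mice 1, 3, 4, 5 and 6 and OVX mice 1, 2, 3, 4 and 6 (adjusted p up to 0.0962). The call for Fgfr3 was lost without any 1 of control mice 2, 5 and 6 and OVX mice 1, 4 and 6 (adjusted p up to 0.0688).

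Of 13 microglial markers 6 rose (46.15%) and 1 fell (7.69%), against 25.9% and 10.5% of all genes. Cx3cr1, the fractalkine receptor, ranged from 3.63 to 3.87 (median 3.75) in the control mice and from 3.92 to 4.17 (median 3.99) in the OVX mice and rose by 0.27 ± 0.05 (SE), adjusted p = 0.00171. C1qa and C1qb, subunits of complement component C1q, rose by 0.25 ± 0.05 (SE), adjusted p = 0.00223 and 0.24 ± 0.06 (SE), adjusted p = 0.00577. In each of the 3 genes the groups were apart. The mean of the list spanned -0.12 to -0.02 in control mice and 0.01 to 0.15 in OVX mice. Its median was 0.14, against 0.19 between the CUMS slides and 0.02 with slide as a term. Itgam, the integrin CD11b, fell by 0.23 ± 0.05 (SE), adjusted p = 0.00441 on its brightest probe and rose by 0.29 ± 0.07, adjusted p = 0.00626, on another, while the dimmest probe fell. Cx3cr1 differed by 0.34 between the CUMS slides and by -0.07 ± 0.12 with slide as a term, C1qa by 0.26 and 0.04 ± 0.12, C1qb by 0.20 and 0.08 ± 0.14, and Itgam by -0.35 and 0.09 ± 0.12. On further probes that passed, the difference was 0.21 for Cx3cr1 and -0.41 for Itgam.

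Of 12 endothelial and blood-brain barrier markers 1 rose and 1 fell. Mfsd2a, the barrier's lipid transporter, ranged from 1.32 to 1.84 (median 1.60) in the control mice and from 1.96 to 2.54 (median 1.99) in the OVX mice, rising by 0.48 ± 0.11 (SE), adjusted p = 0.00562. Its CUMS slide difference was 0.02 and its slide-term difference 0.51 ± 0.19 (unadjusted p = 0.0131, adjusted p = 0.925). The CUMS mice gave 2.08 and 2.34 on slide 1, above all control mice on that slide. On slide 2 they gave 2.04 to 2.42, where the OVX mice gave 1.96 to 2.54. Kdr, the VEGF receptor 2, fell by 0.56 ± 0.11 (SE), adjusted p = 0.00209 on its brighter probe, with -0.04 ± 0.20 under the slide term. Of 7 mural cell markers Cspg4 rose and Tagln, the smooth muscle protein transgelin, fell by 0.60 ± 0.21 (SE), adjusted p = 0.0383. Of 6 tested meningeal genes 0 passed, and their mean spanned -0.68 to 0.86 in control mice and -0.69 to 0.59 in OVX mice. Of 4 tested choroid plexus genes Kl, which encodes klotho, rose by 0.63 ± 0.20 (SE), adjusted p = 0.0265 and Otx2 fell by 0.36 ± 0.10 (SE), adjusted p = 0.0169. Of 7 erythroid genes 0 passed, with list means of -0.37 to 0.64 and -0.58 to 1.02. Of 4 tested neutrophil genes 1 fell and 3 did not pass, with differences from -1.14 to 1.04 and a median of -0.17. The gene that fell was Elane, neutrophil elastase, and what its probe reads in mPFC was not tested. It ranged from 1.76 to 2.30 (median 2.03) in the control mice and from 0.75 to 1.02 (median 0.88) in the OVX mice, a difference of -1.14 ± 0.08 (SE), adjusted p = 5.97e-07, while the CUMS slides differed by -0.83 and the slide-term difference was -0.30 ± 0.17. Tagln differed by 0.19 between the CUMS slides and by -0.79 ± 0.65 with slide as a term, Kl by 0.66 and 0.07 ± 0.45, and Otx2 by -0.32 and -0.10 ± 0.24. Kdr had a CUMS slide difference of -0.59. Further probes without a call gave -0.16 for Kdr. Leaving out any 1 of control mice 1 and 5 and OVX mice 1, 2, 3 and 6 ended the call for Tagln (adjusted p up to 0.077). Kl lost its call without any 1 of control mouse 1 and OVX mice 1 and 4 (adjusted p up to 0.0571).

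Many genes of protein synthesis, protein turnover and respiration rose. Of 78 cytosolic ribosomal protein genes 47 rose and 4 fell (60.3% higher), of 37 proteasome genes 20 rose and 0 fell (54.1%), and of 79 nuclear genes of oxidative phosphorylation 37 rose and 6 fell (46.8%), against 25.9% of all genes. These changes were small, with medians of 0.15, 0.12 and 0.09 on the log2 scale. The medians between the CUMS slides were 0.10, 0.13 and 0.11, and those with slide as a term 0.03, 0.02 and -0.01.

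Among ribosomal proteins Rps2 ranged from 5.84 to 6.10 (median 6.05) in the control mice and from 6.32 to 6.41 (median 6.38) in the OVX mice, a rise of 0.36 ± 0.05 (SE), adjusted p = 0.00012. Rps15 rose by 0.31 ± 0.04 (SE), adjusted p = 9.79e-05 and Rpl29 by 0.27 ± 0.04 (SE), adjusted p = 0.000176. Rps21 ranged from 6.20 to 6.32 (median 6.25) in the control mice and from 5.47 to 5.73 (median 5.68) in the OVX mice and fell by 0.64 ± 0.05 (SE), adjusted p = 2.76e-06, the largest fall of the list. The CUMS mice gave 6.15 and 6.28 on slide 1 and 5.47 to 5.66 on slide 2 for Rps21, and its slide-term difference was -0.04 ± 0.11. Rpl4 fell by 0.24 ± 0.04 (SE), adjusted p = 0.000334, and Rpl7a fell by 0.22 ± 0.04 (SE), adjusted p = 0.00105, and of the other probes for Rpl7a 1 rose by 0.20, 1 fell by 0.42 and 1 did not pass. Ribosomal protein genes have many processed pseudogenes, and a probe may read these too. Of the proteasome, the ATPase subunit Psmc4 ranged from 3.65 to 3.73 (median 3.70) in the control mice and from 3.91 to 3.99 (median 3.94) in the OVX mice and rose by 0.26 ± 0.03 (SE), adjusted p = 7.05e-05. The catalytic core subunit Psmb3 rose by 0.27 ± 0.04 (SE), adjusted p = 0.000148 and the lid subunit Psmd3 by 0.25 ± 0.04 (SE), adjusted p = 0.000569. Of complex I, Ndufa3 ranged from 6.02 to 6.24 (median 6.12) in the control mice and from 6.37 to 6.45 (median 6.43) in the OVX mice and rose by 0.30 ± 0.04 (SE), adjusted p = 0.000137. Ndufa2, also of complex I, rose by 0.22 ± 0.03 (SE), adjusted p = 0.000334, and Cox6b1, a subunit of cytochrome c oxidase, by 0.25 ± 0.04 (SE), adjusted p = 0.000188. Cox7c fell by 0.17 ± 0.04 (SE), adjusted p = 0.00604 on its brightest probe while another probe rose by 0.29 ± 0.04 and the dimmest fell by 0.54. Ndufa8 and Uqcrfs1 fell, with differences of -0.14 ± 0.04 and -0.11 ± 0.03, and their slide-term differences were -0.13 ± 0.06 and -0.14 ± 0.09. Ndufa3 differed by 0.25 between the CUMS slides and by 0.05 ± 0.08 with slide as a term, Cox6b1 by 0.24 and 0.03 ± 0.08, Ndufa2 by 0.12 and 0.09 ± 0.07, Cox7c by -0.10 and -0.10 ± 0.07, and Rps15 by 0.14 and 0.20 ± 0.08. Rps2 differed by 0.31 between the CUMS slides and by 0.04 ± 0.08 with slide as a term, Rpl29 by 0.22 and 0.04 ± 0.07, Rpl4 by -0.26 and 0.02 ± 0.07, Rpl7a by -0.14 and -0.07 ± 0.08, and Psmc4 by 0.17 and 0.10 ± 0.08. Psmb3 differed by 0.22 between the CUMS slides and by 0.06 ± 0.08 with slide as a term, and Psmd3 by 0.18 and 0.05 ± 0.07. Ndufa8 had a CUMS slide difference of -0.04, Uqcrfs1 of 0.04, and Rps21 of -0.63. Other probes that passed differed by 0.23 for Ndufa3, 0.27 for Rps15, 0.15 for Rps2 and 0.22 for Rpl29. Without a call, further probes differed by 0.09 for Ndufa3 and -0.11 for Rpl7a.

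Of 10 heat shock and cold response genes 6 rose (60%) and 0 fell, against 25.9% and 10.5% of all genes. The chaperones Hsph1, Hsp90aa1 and Hsp90ab1 rose by 0.20 ± 0.04, 0.16 ± 0.04 and 0.14 ± 0.04. Hsp90 holds steroid receptors in their ligand-binding state, and the slide-term difference of Hsp90aa1 was -0.12 ± 0.07, in the other direction. Of 15 antioxidant enzymes 4 rose and 1 fell. Sod1, the cytosolic superoxide dismutase, rose by 0.20 ± 0.03 (SE), adjusted p = 0.000574, and the glutathione peroxidases Gpx1 and Gpx4 rose by 0.28 ± 0.05 and 0.19 ± 0.04. Gpx4 had a CUMS slide difference of 0.00 and a slide-term difference of 0.23 ± 0.08 (unadjusted p = 0.007, adjusted p = 0.892). Cat, catalase, fell by 0.52 ± 0.06 (SE), adjusted p = 4.19e-05 on the brighter of 2 probes and rose by 0.21 ± 0.05, adjusted p = 0.00712, on the other. Of 17 genes of cholesterol and lipid synthesis 2 rose, Apoe by 0.20 ± 0.05 (SE), adjusted p = 0.00466 and the desaturase gene Scd1 by 0.20 ± 0.07 (SE), adjusted p = 0.0409, and 0 fell. Of 11 tested genes of insulin and IGF signaling, Insr rose by 0.17 ± 0.05 (SE), adjusted p = 0.0198 and Igf1r by 0.25 ± 0.08 (SE), adjusted p = 0.0261, beside the fall of Igf1. Hsph1 differed by 0.16 between the CUMS slides and by 0.06 ± 0.09 with slide as a term, Hsp90ab1 by 0.09 and 0.05 ± 0.07, Insr by -0.01 and 0.15 ± 0.09, Igf1r by 0.13 and 0.19 ± 0.15, and Apoe by 0.16 and 0.07 ± 0.10. Scd1 differed by 0.18 between the CUMS slides and by 0.04 ± 0.13 with slide as a term, Sod1 by 0.15 and 0.04 ± 0.07, Gpx1 by 0.27 and 0.04 ± 0.08, and Cat by -0.65 and 0.08 ± 0.17. Hsp90aa1 had a CUMS slide difference of 0.26. Further probes that also passed gave 0.18 for Hsph1. Other probes that did not pass differed by 0.10 and -0.06 for Insr. The call for Igf1r was lost without any 1 of control mice 1, 5 and 6 and OVX mice 1, 2 and 4 (adjusted p up to 0.0564). Leaving out any 1 of control mice 1, 2, 3 and 6 and OVX mice 2, 3, 4 and 5 ended the call for Scd1 (adjusted p up to 0.0843).

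Of 17 circadian clock genes 1 rose and 1 fell. Cry1, a repressor of the clock, ranged from -2.47 to -2.28 (median -2.40) in the control mice and from -3.08 to -2.81 (median -2.87) in the OVX mice and fell by 0.53 ± 0.05 (SE), adjusted p = 1.23e-05. The CUMS slides differed by -0.39 and the slide-term difference was -0.16 ± 0.17. Tef, a clock-controlled transcription factor, rose by 0.15 ± 0.04 (SE), adjusted p = 0.0145. Of 16 glucocorticoid receptors and induced genes 1 rose, the mineralocorticoid receptor gene Nr3c2, which ranged from -2.20 to -1.75 (median -2.11) in the control mice and from -1.72 to -1.30 (median -1.59) in the OVX mice (0.46 ± 0.09 (SE), adjusted p = 0.00237, 0.06 ± 0.22 with slide as a term). Tef differed by 0.15 between the CUMS slides and by -0.01 ± 0.10 with slide as a term. Nr3c2 had a CUMS slide difference of 0.44.

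Of 12 tested genes of interferon and inflammation 2 rose and 2 fell, and Il1b, Il6, Tnf, Ccl2 and Cxcl10 were among the 8 not tested. Tgfb1 rose by 0.35 ± 0.06 (SE), adjusted p = 0.000827. The interferon-induced genes Oasl2 and Isg15 fell, with differences of -0.28 ± 0.08, adjusted p = 0.0211, and -0.21 ± 0.07, adjusted p = 0.0261. The median of the list was -0.13 in the 12 mice, 0.29 between the CUMS slides and -0.29 with slide as a term. In the fit with slide, 5 of the 12 genes had an unadjusted p below 0.05, against 4.73% of all genes. They were not all in the same direction, and 0 passed. In that fit, Oasl2 (unadjusted p = 0.00922), Isg15 (0.0155) and, named after their values were seen, Ifit1 (0.0211) and Usp18 (0.0499) differed by -0.61, -0.44, -0.84 and -0.48. These 4 interferon-induced genes had adjusted p-values of 0.915, 0.925, 0.943 and 0.973 there. In the 12 mice, Ifit1 differed by -0.33 ± 0.16 (SE), adjusted p = 0.121, and Usp18 by -0.12 ± 0.12 (SE), adjusted p = 0.476. Neither of them passed. Tgfb1 differed by 0.29 between the CUMS slides and by 0.09 ± 0.12 with slide as a term. Oasl2 had a CUMS slide difference of 0.35, Isg15 of 0.22, Ifit1 of 0.51, and Usp18 of 0.40. Further probes without a call gave -0.08 for Isg15. Isg15 lost its call without any 1 of control mice 1 and 2 and OVX mice 1, 2 and 4 (adjusted p up to 0.0565).

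**Figure D4:**
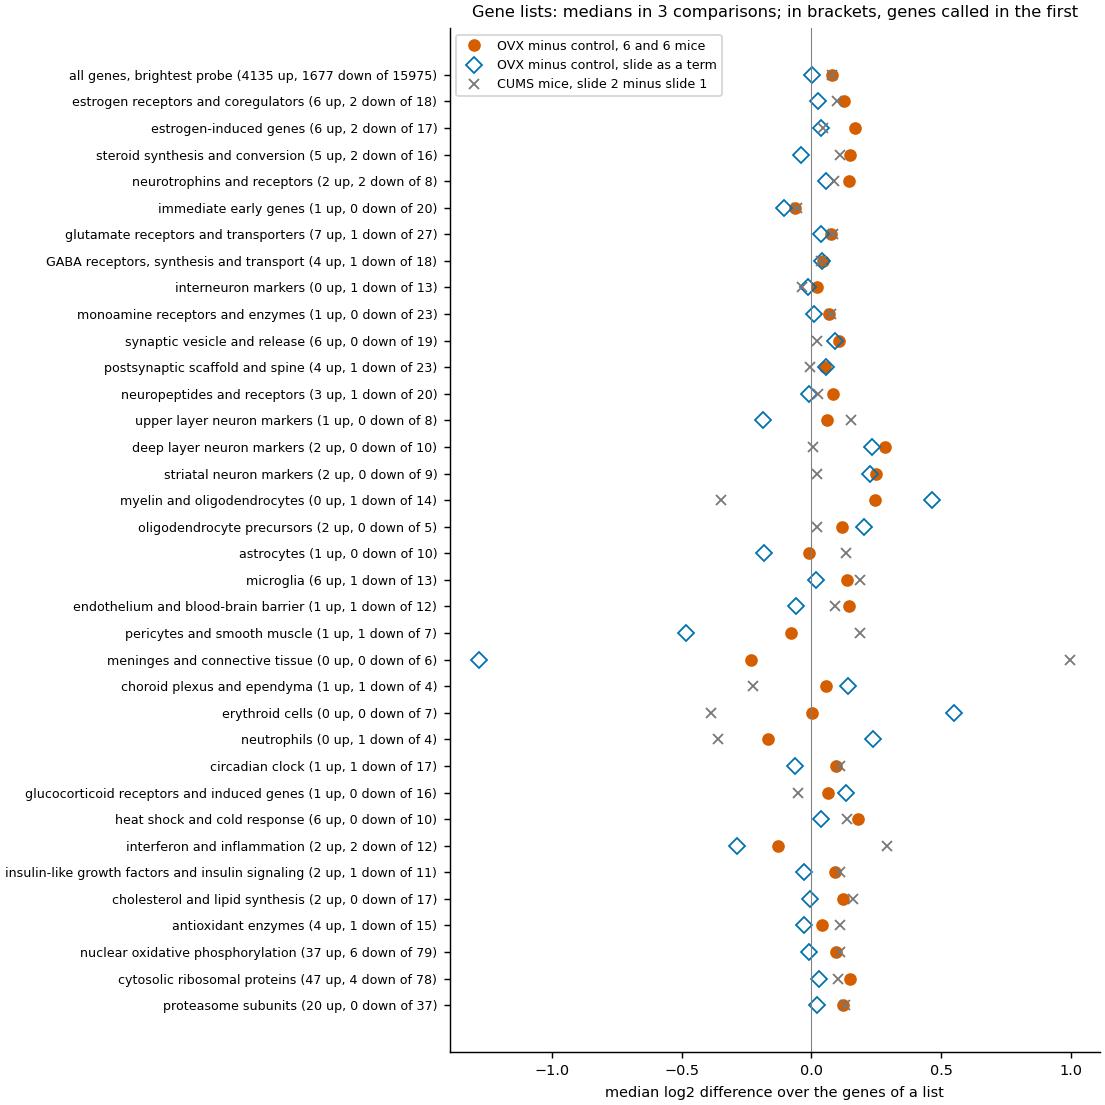
Each line is a gene list, with the number of genes that rose and fell in brackets, and the x axis is the median log2 difference over the brightest probes of its genes in 3 comparisons. The medians of the 12-mouse comparison lie right of 0 for most lists, and with slide as a term those of ribosomal, proteasome and oxidative phosphorylation genes lie between -0.01 and 0.03.

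Across the lists, 602 genes were tested, of which 182 rose and 33 fell. They had 328 further probes. Of these, 64 were called the same way as the brightest probe, 69 were not called where the brightest was, and 12 were called the other way. The 12 belonged to Cat, Rpl17 (2 probes), Itgam, Sdhc, Rps24, Cox7c, Ndufv3, Med1, Csf1r, Rpl7a and Atp5c1. Of all 4599 named genes with several tested probes, 2720 had a probe that passed, 553 had every probe called in 1 direction, 1949 had some called in 1 direction and others not called, and 218 had probes called in both directions.

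The largest falls were in probes whose CUMS values also differed between slides. Lingo1, a partner of the Nogo receptor in the inhibition of axon growth and myelination, ranged from 1.47 to 1.92 (median 1.69) in the control mice and from -1.50 to -1.0 (median -1.19) in the OVX mice. It fell by 2.90 ± 0.11 (SE), adjusted p = 2.44e-09, with no overlap of the groups. The CUMS mice gave 1.59 and 1.72 on slide 1 and -1.09 to -0.71 on slide 2, a difference of -2.60 ± 0.12 (adjusted p = 0.000551), and the slide-term difference was -0.37 ± 0.18 (unadjusted p = 0.057). The probe lies at chr9:56466922-56466981 (mm9). Fbxo25, an F-box protein of a ubiquitin ligase, ranged from -1.90 to -1.66 (median -1.75) in the control mice and from -4.44 to -4.10 (median -4.14) in the OVX mice on the probe at chr8:13940462-13940521. That probe fell by 2.41 ± 0.07 (SE), adjusted p = 2.45e-10, and the CUMS mice gave -2.16 and -2.01 on slide 1 and -4.21 to -3.60 on slide 2. A probe for the same gene that starts 64 bases before it, at chr8:13940398-13940457, had a mean intensity of 10220 against 112 and a difference of 0.06 ± 0.06, adjusted p = 0.475. Tomm70a, an import receptor of the outer mitochondrial membrane, ranged from -2.77 to -2.38 (median -2.54) in the control mice and from -4.87 to -4.10 (median -4.56) in the OVX mice on one probe, which fell by 1.99 ± 0.11 (SE), adjusted p = 1.28e-07, and its other probe differed by 0.05 ± 0.06. The slide-term difference of the first probe was 0.14 ± 0.19, in the other direction. Fbxo25 differed by -1.89 between the CUMS slides and by -0.55 ± 0.20 with slide as a term. Tomm70a had a CUMS slide difference of -2.12.

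The other genes with the largest falls had 1 tested probe each. Slc51b, a subunit of a bile acid and steroid transporter, ranged from -1.61 to -0.03 (median -1.28) in the control mice and from -4.38 to -2.72 (median -3.55) in the OVX mice and fell by 2.55 ± 0.33 (SE), adjusted p = 0.00011. Slco1a5, an organic anion transporter, ranged from -1.75 to -1.41 (median -1.66) in the control mice and from -4.16 to -3.50 (median -3.83) in the OVX mice and fell by 2.25 ± 0.10 (SE), adjusted p = 1.78e-08. Colca2 fell by 2.02 ± 0.22 (SE), adjusted p = 2.70e-05. The serpin gene Serpinb6d fell by 1.88 ± 0.10 (SE), adjusted p = 5.87e-08 and Pgc, which encodes the gastric protease precursor progastricsin, fell by 1.87 ± 0.27 (SE), adjusted p = 0.000243. Between the CUMS slides these 5 genes differed by -2.21, -2.0, -1.81, -1.86 and -1.93. The slide-term differences were -0.61 ± 0.63, -0.34 ± 0.19, -0.37 ± 0.47, -0.01 ± 0.28 and -0.04 ± 0.60. Of the 309 probes that fell by more than 1 in OVX mice (1.05% of those tested), 230 were lower by more than 1 in the CUMS mice of slide 2, and 0 were lower by more than 1 with slide as a term. The median of the 309 was -1.15 between the CUMS slides and -0.13 for OVX with slide as a term. The 42 named genes among them with other tested probes had 51 of these, with a median difference of 0.03, and 13 of the 51 fell.

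The largest rises were smaller and came from dim probes. Hbb-bh1, an embryonic globin gene, ranged from -4.84 to -4.18 (median -4.48) in the control mice and from -3.92 to -3.09 (median -3.62) in the OVX mice, a rise of 0.92 ± 0.14 (SE), adjusted p = 0.000378. The CUMS mice gave -4.68 and -4.2 on slide 1 and -4.04 to -3.56 on slide 2. Olfr538, an olfactory receptor gene, rose by 0.89 ± 0.11 (SE), adjusted p = 0.0001, and Vmn1r56, a vomeronasal receptor gene, by 0.71 ± 0.09 (SE), adjusted p = 0.000119. Ugt3a2, a glycosyltransferase gene, rose by 0.83 ± 0.11 (SE), adjusted p = 0.000171. Ebf4, a transcription factor gene, rose by 0.82 ± 0.13 (SE), adjusted p = 0.000509 on one probe and had 0.07 on a brighter one. Gulo, the last enzyme of vitamin C synthesis, rose by 0.75 ± 0.12 (SE), adjusted p = 0.000571. Sln, which encodes sarcolipin, an inhibitor of the calcium pump of the sarcoplasmic reticulum, ranged from -2.52 to -1.94 (median -2.04) in the control mice and from -1.72 to -1.27 (median -1.40) in the OVX mice and rose by 0.70 ± 0.11 (SE), adjusted p = 0.000416. Its slide-term difference was 0.44 ± 0.20 (unadjusted p = 0.0416, adjusted p = 0.973). Trib1, a pseudokinase, rose by 0.70 ± 0.12 (SE), adjusted p = 0.000609 on its dimmest probe, while its 2 brighter probes differed by 0.04 and -0.14. Mean intensities of these 8 probes ranged from 29.6 to 188, against a median of 540.3 over all tested probes. Hbb-bh1 differed by 0.64 between the CUMS slides and by 0.30 ± 0.31 with slide as a term, Olfr538 by 0.87 and 0.10 ± 0.24, Ugt3a2 by 0.54 and 0.24 ± 0.19, Ebf4 by 0.40 and 0.38 ± 0.41, and Gulo by 0.41 and 0.29 ± 0.28. Vmn1r56 differed by 0.43 between the CUMS slides and by 0.28 ± 0.16 with slide as a term, and Trib1 by 0.01 and 0.56 ± 0.24. Sln had a CUMS slide difference of 0.28.

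**Figure D5:**
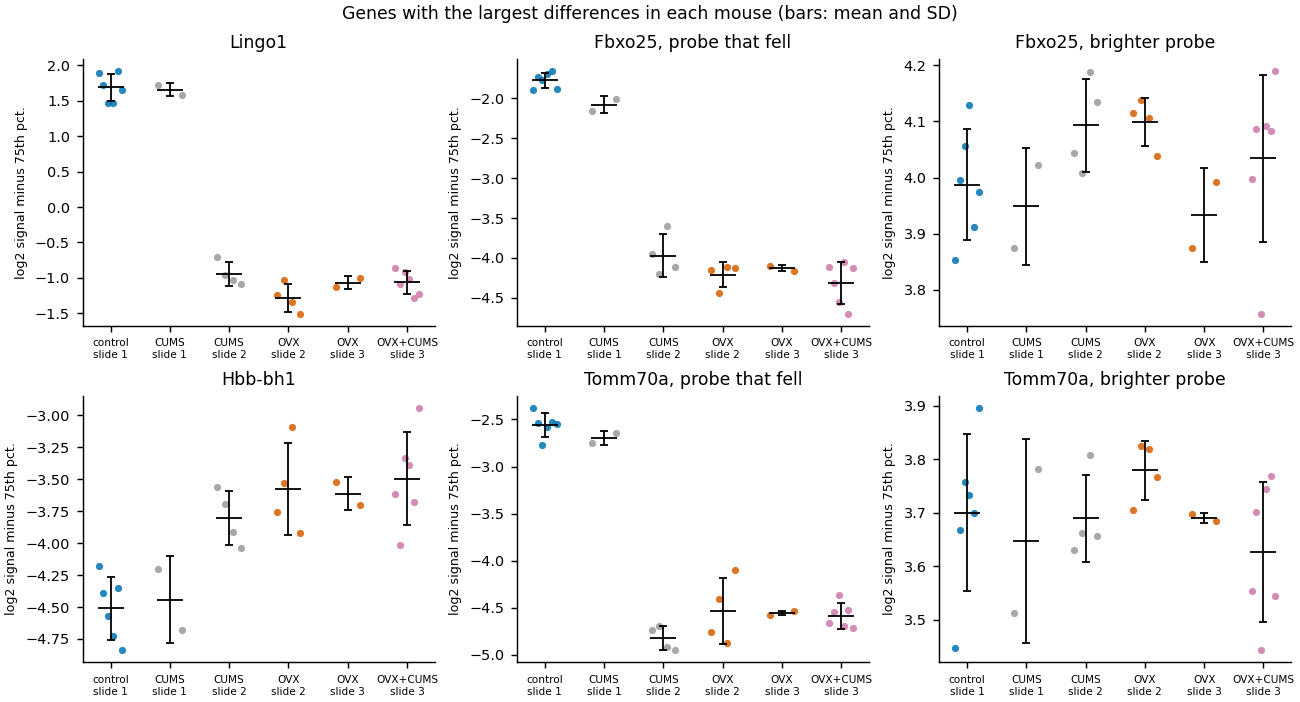
Points are mice, bars the mean and SD of log2 signal minus the 75th percentile of the array (y axis), by treatment and slide (x axis). For Lingo1 and the fallen probes of Fbxo25 and Tomm70a, all mice of slide 1 lie above all mice of slides 2 and 3. Within slide 1, both CUMS mice lie below all control mice for the fallen probe of Fbxo25. The brighter probes of Fbxo25 and Tomm70a overlap.

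Some of the probes that fell most shared a sequence word. Probes that read a noncoding region on this array are known only by coordinates. Those on 1 chromosome were left out of the choice of probes to show. Of the rest, the 3 that fell most and hold GTCTTCC are shown, each 60 bases, with that word in capitals.
A_30_P01020694: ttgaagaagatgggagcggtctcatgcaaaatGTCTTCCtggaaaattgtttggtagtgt
A_30_P01018229: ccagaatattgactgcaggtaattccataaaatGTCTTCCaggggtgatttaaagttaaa
A_30_P01026183: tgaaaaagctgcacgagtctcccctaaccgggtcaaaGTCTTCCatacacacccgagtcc
In mm9 they lie at chr1:38892128-38892187 on the minus strand, chr12:21383015-21383074 on the minus strand and chrX:75828991-75829050 on the plus strand. The first ranged from -1.83 to -0.40 in control mice and from -3.97 to -2.87 in OVX mice, and its CUMS values were -1.75 and -1.55 on slide 1 and -4.30 to -2.97 on slide 2. The differences of the 3 probes between OVX and control mice were -2.17, -2.04 and -1.54, between the CUMS slides -1.98, -1.95 and -1.55, and with slide as a term -0.36, -0.21 and -0.07. The word was chosen after the values were seen. GTCTTCC stood in 207 tested probes (0.706%) and in 30 of the 309 that fell by more than 1 (9.71%). The probes for Slc51b, Colca2 and Pgc hold it. Its reverse complement GGAAGAC stood in 166 probes (0.566%) and in 0 of the 309. The 207 probes had a median difference of -0.25 between OVX and control mice, -0.31 between the CUMS slides and -0.02 with slide as a term, and 83 fell, 18 rose and 106 did not pass. GAAGAAG stood in 452 tested probes (1.54%) and in 19 of the 309 (6.15%), and its reverse complement CTTCTTC in 225 and in 5. A match is a description of the probe. By the share of G and C in the probe, the median difference was -0.20 in 434 probes with up to 30%, 0.03 in 11397 with 30 to 40%, 0.10 in 12178 with 40 to 50%, 0.14 in 4602 with 50 to 55% and -0.24 in 716 with more, so that both ends were lower. In the same order, the medians between the CUMS slides were -0.12, 0.05, 0.07, 0.09 and -0.29. With slide as a term they were -0.08, -0.02, 0.02, 0.05 and 0.01. Noncoding regions made up 4932 of the 29327 tested probes and 90 of the 309. Of the 4932, 478 rose and 1305 fell, where 22.9% of all tested probes rose and 14.3% fell. Their differences between the CUMS slides and with slide as a term were not summarized.

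With slide as a term, the named genes with the smallest p-values were chosen after their values were seen. Kif24, a kinesin that acts at the centriole and holds back ciliation, ranged from -3.23 to -3.02 in control mice and from -4.17 to -3.79 in OVX mice, and fell by 0.86 ± 0.06 (SE), adjusted p = 9.98e-07. Its slide-term difference was -0.66 ± 0.11 (unadjusted p = 7.52e-06, adjusted p = 0.11), and the CUMS slides differed by -0.28. Amd2, an S-adenosylmethionine decarboxylase of polyamine synthesis, differed by -0.66 ± 0.13 with slide as a term and by -0.21 ± 0.10 (SE), adjusted p = 0.135 in the 12 mice on 1 of 3 probes. In the 12 mice its brightest probe differed by -0.09 (adjusted p = 0.139) and its other probe by 0.17 (adjusted p = 0.335). With slide as a term these 2 differed by -0.07 and 0.08. Fxyd7, a brain regulator of the sodium pump, rose by 0.37 ± 0.07 (SE), adjusted p = 0.00169 in the 12 mice, differed by 0.49 ± 0.10 with slide as a term and by -0.07 between the CUMS slides. Amd2 had a CUMS slide difference of 0.33.

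The OVX difference was then set against that in stressed mice, as the difference of OVX+CUMS and CUMS mice minus the difference of OVX and control mice. Of 29279 probes, 937 were higher (3.2%) and 314 lower (1.07%), in all 4.27%, and with slide as a term 0 were by limma, with 688 at an unadjusted p below 0.05. The count ranged from 1 to 3821 when 1 array at a time was left out. It was 1 without any of control mice 1, 5 and 6, CUMS mice 3 to 6, OVX mice 1 to 4 or OVX+CUMS mouse 3, and 3 without OVX+CUMS mouse 1. It was 631, 658 and 689 without control mice 2, 3 and 4, 427 and 802 without OVX+CUMS mice 2 and 5, and 3821 and 3312 without CUMS mice 1 and 2, the 2 on slide 1. The CUMS group itself spans slides 1 and 2, while OVX+CUMS mice lie on slide 3. Lingo1 differed by 1.91 (adjusted p = 0.0464), Igf1 by 0.50 (adjusted p = 0.0396), Ncor1 by -0.39 (adjusted p = 0.0485) and Kif24 by 0.81 (adjusted p = 0.00389).

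In blood of the same 12 mice, whose control and OVX arrays lie on separate slides in the same layout, 10896 of 20881 probes measured in both tissues were called (52.2%). The OVX difference in mPFC was above that in blood for 2226 probes and below it for 1267 (16.7% of those tested), with the mouse as a random block. Igf1 fell in both, with differences of -1.53 in blood (adjusted p = 2.31e-09) and -0.55 in mPFC, a difference between tissues of 0.98 (adjusted p = 0.000302). Elane, which is made in neutrophil precursors, differed by -1.41 in blood, and its difference between tissues was 0.27 (adjusted p = 0.206). Rps15 rose in mPFC and fell in blood (-0.73), a difference between tissues of 1.04 (adjusted p = 1.19e-06), and Syp, which rose in mPFC, fell in blood (-0.80), a difference of 0.95 (adjusted p = 1.68e-06). Kif24 differed by -0.77 in blood (adjusted p = 3.88e-07), and its difference between tissues was -0.10 (adjusted p = 0.616).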

How the data were processed

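The authors hybridized Cy3-labelled RNA, amplified from a poly dT primer, to 1-colour Agilent mouse arrays, 8 to a slide. The mPFC was dissected from coronal brain slices. The deposited files hold the processed intensity of each of 62976 spots, background-subtracted by Feature Extraction, with mm9 probe coordinates. The deposited normalized log2 table, in which the authors shifted each array by its 75th percentile, was used only as an alternative, and matched the values computed here within 0.001 for 100.0% of values.

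Groups came from the sample labels. Intensities were averaged over spots of a probe, taken to log2 and shifted by the 75th percentile of each array. Probes well above background on all 12 arrays were tested with limma 3.58.1 (R 4.3.3, moderated test, Benjamini-Hochberg threshold of 0.05), OVX against control. This departs from the one-way ANOVA with Tukey's test of the study's methods, which was an alternative (7503 probes). Slide was a fixed term in a fit of 4 groups on 24 arrays. A gene was read by its brightest probe in lists. Named genes were the 8 probes of established symbols with the largest rise and fall, without overlap of the groups, Esr1, Esr2, Gper1 and Pgr, up to 3 called genes of each list in each direction with the smallest p, and genes called both in the 12 mice and with slide as a term, of which there were 0. Some genes that this rule named are not reported here. The 35 lists and the members were chosen with earlier results of these data known. Fits were tested on simulated data. The fit of OVX against control made 1 false call without slide differences and 5383 with slide differences of an assumed size, among 29279 probes. With these slide differences, the fit with slide as a term made 2 false calls. It recovered 0% of changes of 0.25 on the log2 scale, 17.9% of changes of 0.5 and 71.2% of changes of 1. Without slide differences, the fit of OVX against control recovered 13.4%, 44.8% and 90.9% of these. The simulated spread was taken around the group means of the data. The CUMS and OVX groups each span slides, so that spread also holds slide differences, and the recovered shares apply to this setting only. Mice are the replicates, and their number limits the precision. Alternatives covered background correction, scaling, filter, moderation, slide, pairing and leaving out each array.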

Additional observations from a re-analysis of the deposited data

Results flagged for a closer look

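In 19 of 234 groups of 6 mice examined for the named probes (8.12%), 1 mouse stood apart, its gap to the nearest mouse exceeding the 95% critical value of Dixon's test for 6 values. Chance gives this in about 1 of 20 groups. Among control mice the lowest value stood apart for Gulo in mouse 1 (gap 0.632 of the range, -5.01 against -4.61), Crebbp in mouse 6 (gap 0.767 of the range, 4.23 against 4.45), Insr in mouse 6 (gap 0.751 of the range, -1.17 against -0.988), Gpx1 in mouse 1 (gap 0.742 of the range, 4.08 against 4.28). Among control mice the highest value stood apart for Tspo in mouse 6 (gap 0.631 of the range, -0.674 against -0.982), Hsd17b10 in mouse 6 (gap 0.664 of the range, 3.83 against 3.72). Among OVX mice the lowest value stood apart for Olfr538 in mouse 6 (gap 0.636 of the range, -3.89 against -3.54), Fbxo25 in mouse 2 (gap 0.842 of the range, -4.44 against -4.16), Ncor1 in mouse 5 (gap 0.687 of the range, 2.19 against 2.36), Gabra4 in mouse 3 (gap 0.695 of the range, 1.99 against 2.14), Bsn in mouse 5 (gap 0.639 of the range, 4.76 against 4.97), Tef in mouse 1 (gap 0.63 of the range, 7.1 against 7.15), Psmb3 in mouse 2 (gap 0.649 of the range, 5.55 against 5.58). Among OVX mice the highest value stood apart for Lhx6 in mouse 5 (gap 0.681 of the range, 4.04 against 3.8), Oprm1 in mouse 5 (gap 0.637 of the range, 5.4 against 5.24), Fgfr3 in mouse 1 (gap 0.646 of the range, 4.04 against 3.94), Cx3cr1 in mouse 2 (gap 0.63 of the range, 4.17 against 4.01), Mfsd2a in mouse 4 (gap 0.859 of the range, 2.55 against 2.04), Usp18 in mouse 3 (gap 0.645 of the range, -2.51 against -2.98). Levels are log2 signals minus the 75th percentile of the array.

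The OVX difference under CUMS minus that without stress differed from 0 by limma for 12 named probes: Lingo1 (1.91, adjusted p = 0.0464), Slc51b (2.5, adjusted p = 0.0396), Fbxo25 (1.44, adjusted p = 0.0466), Slco1a5 (1.62, adjusted p = 0.0397), Colca2 (2.08, adjusted p = 0.0345), Pgc (2.16, adjusted p = 0.0423), Ncor1 (-0.389, adjusted p = 0.0485), Igf1 (0.503, adjusted p = 0.0396), Gabrb1 (-0.362, adjusted p = 0.038), Elane (0.9, adjusted p = 0.0344), Cry1 (0.51, adjusted p = 0.0476), Kif24 (0.807, adjusted p = 0.00389). In the fit with slide, 0 probes passed this test. OVX and control mice share no slide, and OVX+CUMS mice lie on slide 3 alone.

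The OVX difference in mPFC minus that in blood differed from 0 by limma for 17 named probes: Olfr538 (0.968, adjusted p = 0.0169), Ugt3a2 (0.729, adjusted p = 0.0307), Med1 (-0.323, adjusted p = 0.0162), Igf1 (0.982, adjusted p = 0.000302), Sts (0.543, adjusted p = 0.0412), Jund (0.644, adjusted p = 0.00295), Grm2 (0.518, adjusted p = 0.0134), Dlg2 (0.853, adjusted p = 0.0256), Rgs9 (1.22, adjusted p = 3.25e-05), C1qb (0.674, adjusted p = 0.000247), Apoe (0.285, adjusted p = 0.0476), Sod1 (0.312, adjusted p = 0.00702), Ndufa3 (0.469, adjusted p = 0.00133), Rps15 (1.04, adjusted p = 1.19e-06), Rps2 (0.454, adjusted p = 0.000399), Psmc4 (-0.275, adjusted p = 0.019), Syp (0.948, adjusted p = 1.68e-06). In both tissues, control and OVX mice lie on separate slides.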

How the results depend on the processing

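The count of probes changed by ovariectomy in the 12 mice stayed within 1.5 times its value under 13 alternatives of background correction, scaling, filter, values, moderation, samples, slide and pairing, and fell to 2038 under the spike-in shift, to 4330 (1534 higher, 2796 lower) with the 2 OVX mice of slide 3 only and to 0 with slide as a term. The slide alternative among the 13 took slide as a random block and gave 11111 probes. Such a block cannot take out a slide difference here, since control and OVX mice share no slide. Leaving out 1 mouse gave 9506 to 10640 probes. Of the 602 list genes, 215 passed, against 11 under the spike-in shift, 136 without a filter, 59 with the OVX mice of slide 3 only and 0 with slide as a term, and 184 to 214 without 1 mouse. Of 117 named probes 110 passed, 92 kept their call without any 1 mouse, 18 lost it at least once, each named in the results with the mice concerned, and 0 changed sign. The cause of these changes was not tested.

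With slide as a term, leaving out 1 of the 24 arrays gave 0 to 45 probes: 45 without CUMS mouse 2, 20 without CUMS mouse 1, 2 without control mouse 6, 1 each without CUMS mouse 6 and OVX+CUMS mouse 5, and 0 otherwise. The CUMS slide difference of 4489 probes was 2877 without moderation and 2036 to 3247 without 1 mouse: 2542, 2441, 2534 and 2036 without CUMS mice 1, 4, 5 and 6. Without CUMS mouse 1 or 2, 1 array stood for slide 1 and was assumed to vary like the 4 of slide 2, and the same holds for OVX mouse 5 or 6 and slide 3. The OVX slide difference of 144 probes was 0 without moderation (3337 at an unadjusted p below 0.05) and 6 to 182 without 1 mouse: 6, 38, 12, 6 and 16 without OVX mice 2 to 6. The test with and without stress gave 1251 probes, 702 without moderation, 0 with slide as a term and 1 to 3821 without 1 array. The test between tissues gave 3493, 3388 without moderation and 2859 to 4459 without 1 array, and slide as a fixed block could not be fitted there. The CUMS slide difference, the values within slides 1 and 2, the repeats of the fit with slide, the OVX difference in blood and the counts of sequence words were chosen after seeing the data.

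With the replicate number as a block, 10267 probes passed. Deviations of same-numbered OVX and control mice correlated at -0.0863 to 0.17, and 3 of 6 mice correlated best with their own number, so the numbers were not taken to pair the mice.

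Under the spike-in shift, which lowered the median of all probes to -0.44, 64 named probes that rose had a difference below 0: Ncor1 -0.00462, Crebbp -0.28, Ncoa3 -0.31, Ctsd -0.30, Prlr -0.18, Celsr2 -0.18, Fdxr -0.25, Tspo -0.15, Hsd17b10 -0.33, Ntrk3 -0.22, Gfra1 -0.26, Jund -0.34, Grin1 -0.25, Slc1a1 -0.31, Slc17a7 -0.27, Gabrb1 -0.17, Gabrb2 -0.32, Slc32a1 -0.39, Drd1 -0.0894, Bsn -0.24, Stx1a -0.24, Unc13a -0.31, Dlg2 -0.28, Dbn1 -0.32, Cfl1 -0.39, Sstr2 -0.27, Adcyap1r1 -0.35, Cckbr -0.34, Rorb -0.24, Crym -0.14, Bcl11b -0.0875, Rgs9 -0.0892, Sox10 -0.11, Cspg4 -0.22, Fgfr3 -0.32, Cx3cr1 -0.24, C1qa -0.25, C1qb -0.27, Mfsd2a -0.029, Tef -0.36, Nr3c2 -0.0518, Hsph1 -0.31, Hsp90aa1 -0.35, Hsp90ab1 -0.37, Tgfb1 -0.16, Insr -0.34, Igf1r -0.26, Apoe -0.31, Scd1 -0.31, Sod1 -0.31, Gpx1 -0.23, Gpx4 -0.31, Ndufa3 -0.21, Cox6b1 -0.26, Ndufa2 -0.29, Rps15 -0.20, Rps2 -0.14, Rpl29 -0.24, Psmc4 -0.25, Psmb3 -0.23, Psmd3 -0.26, Syp -0.36, Vamp2 -0.36 and Fxyd7 -0.14. In the fit with slide, 20 of the 110 named probes that passed changed sign: Tomm70a 0.14, Crebbp -0.0293, Med1 0.0514, Tspo -0.0658, Hsd17b10 -0.0374, Sts 0.21, Gfra1 -0.00131, Gabrb2 -0.0371, Homer3 0.17, Adcyap1r1 -0.0394, Cckbr -0.0406, Oprm1 0.11, Rorb -0.23, Ermn 0.0402, Cx3cr1 -0.067, Itgam 0.0858, Tef -0.0108, Hsp90aa1 -0.12, Cat 0.085 and Rpl4 0.0158. Of the 7 that had not passed, 3 did so too, Esr1, Esr2 and Gper1.

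No array reported a saturated spot. Signal limits the largest rises, whose probes are dim.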
